A study of Homo sapiens with 9 samples.

Results

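The arrays compared here are the 3 that carry replicate number 1 in the labels, 1 from each treatment, against the 6 that carry number 2 or 3, out of 9 arrays in the series. They were chosen by their titles, and the split itself was chosen from measured values of this table, in which arrays of the same number resembled each other. For that reason the differences between replicate 1 and the other arrays are given as descriptions with their standard errors. Where a gene is said to be past the limit or to pass, an adjusted p under 0.05 in limma serves only as a common measure of a difference against the spread between arrays. It is no test of the split, and falling short of it does not show that a gene was alike on all arrays. The labels do not say what the number marks, whether a culture, a passage, a day of extraction or a day of hybridisation. A state of the cells and a step of the laboratory that share the number therefore cannot be told apart, and the arrays are called here by their number alone.

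The study measured HT29, an established human line from a colon cancer, to see how coffee and a coffee phenol act on its gene expression. Control cells received no treatment, CA cells received caffeic acid at 1.68 µg/mL for 24 h, and ICC cells received instant caffeinated coffee at 7 µg/mL for 24 h. Every treatment had 3 arrays, numbered 1 to 3, and biotin-labelled RNA was hybridised to Affymetrix arrays with 54675 probe sets. The labels do not say whether arrays came from separate cultures, so p-values below measure only the spread between arrays, which can be technical. Precision is limited by having 9 arrays.

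Array medians of gene levels lay between 6.46 and 6.56 log2 in replicate 1 and between 6.41 and 6.47 in the other 6. Correlations between arrays across genes lay between 0.995 and 0.998. The difference between probes at the 3′ and the 5′ end of ACTB, a sign of RNA length, was 0.16 to 0.30 log2 in replicate 1 and 0.28 to 0.40 in the others. For GAPDH it was -0.039 to 0.023 against -0.010 to 0.093. Their part in the differences below was not tested. The epithelial markers EPCAM and KRT20 had mean levels of 13.11 and 11.70 log2 over the 9 arrays. The leukocyte markers PTPRC, at 3.65, and CD3E, at 5.27, lay below the median gene at 6.46. Both lists were mixed, since 5 of 12 colon epithelial genes and 10 of 14 leukocyte markers lay below that level.

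Interferons are secreted signals that bind receptors on the cell surface and, through JAK kinases and STAT factors, switch on a common set of antiviral genes. Among these are subunits that turn the proteasome into the immunoproteasome, which cuts proteins into peptides for display on MHC class I molecules. NF-kB, a second transcription system, drives chemokines, complement factors and its own inhibitors in colon epithelium. Both systems are known to share target genes.

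Genes were named by a rule given below, which passes over dim genes and uncharacterised loci. Among them the widest differences of the replicate 1 arrays were in HCP5, TRIM22, CXCL6, PSMB9 and CFB. These stood at 1.82, 1.70, 1.54, 1.51 and 1.44 log2, all higher. Over 19775 genes, limma with treatment as a covariate placed 473 genes higher (2.39% of all tested) and 90 lower (0.455%) at an adjusted p under 0.05, 563 in all. The rule that chose the arrays used this contrast, so nothing is read from these shares. Of the higher genes 23 differed by at least 2-fold, and of the lower 0 did. All 473 and all 90 had the same sign within each of Control, CA and ICC, which picking genes by this contrast favours. The median difference of all genes was 0.027 log2. All 3 replicate 1 arrays lay above the other 6 in 1426 genes (7.21%) and below them in 394 (1.99%). Of the genes past the limit, 449 higher and 78 lower ones had arrays apart in this way, which by itself fixes their sign within each treatment.

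**Figure D1:**
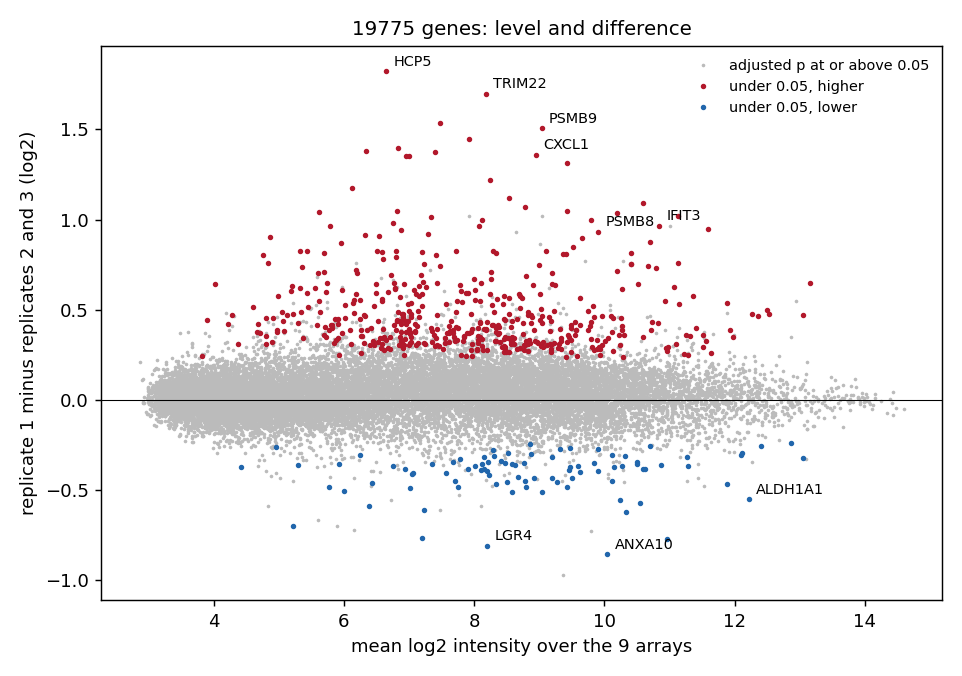
Difference between the 3 replicate 1 arrays and the other 6 (y axis, log2) against the mean level over 9 arrays (x axis, log2 intensity) for 19775 genes. Red points are the 473 higher and blue points the 90 lower genes at an adjusted p under 0.05 in limma. The labelled red point highest on the axis is HCP5 at 1.82, and the labelled blue point lowest on the axis is ANXA10 at -0.86.

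The size of this set rested on each of the replicate 1 arrays. Without Control replicate 1 the count was 117, without CA replicate 1 it was 77 and without ICC replicate 1 it was 75, of which 112, 76 and 74 were among the 563. It was 284 without ICC replicate 2 and 291 without ICC replicate 3. With the replicate block, which gives replicates 2 and 3 a level each, 1003 genes passed, 796 higher and 207 lower. Against replicate 2 alone there were 760 genes and against replicate 3 alone 901.

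The immunoproteasome and its partners in class I antigen processing stood higher on the replicate 1 arrays. Of 19 genes of this list that were measured, 11 were past the limit and higher and 0 lower, and 15 had all replicate 1 arrays above the rest. Over all genes the same shares were 2.39%, 0.455% and 7.21%. The median difference of the list was 0.39 log2, against 0.027 for all genes. Without Control replicate 1 or CA replicate 1 the count was 4, and without ICC replicate 1 it was 5. In RNA of a whole culture, more cells with a transcript and more transcript per cell cannot be told apart.

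PSMB9, an inducible catalytic subunit of the immunoproteasome, read 9.98 log2 in Control, 10.16 in CA and 9.996 in ICC of replicate 1, against 8.37, 8.55 and 8.65 as the lowest, median and highest of the other 6. The groups were far apart in every treatment. The difference was 1.51 ± 0.069 log2 (SE, n = 3 and 6 arrays, 2.84-fold). PSMB8, a second inducible subunit, read 10.56, 10.52 and 10.50 in Control, CA and ICC of replicate 1 and 9.46, 9.61 and 9.67 as lowest, median and highest elsewhere. Again no array of the other numbers reached replicate 1, and the difference was 0.93 ± 0.066 (1.91-fold). PSMB10, the remaining inducible subunit, differed by 0.39 ± 0.065, and PSME1, a subunit of the proteasome activator, by 0.22 ± 0.056 without passing the limit.

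**Figure D2:**
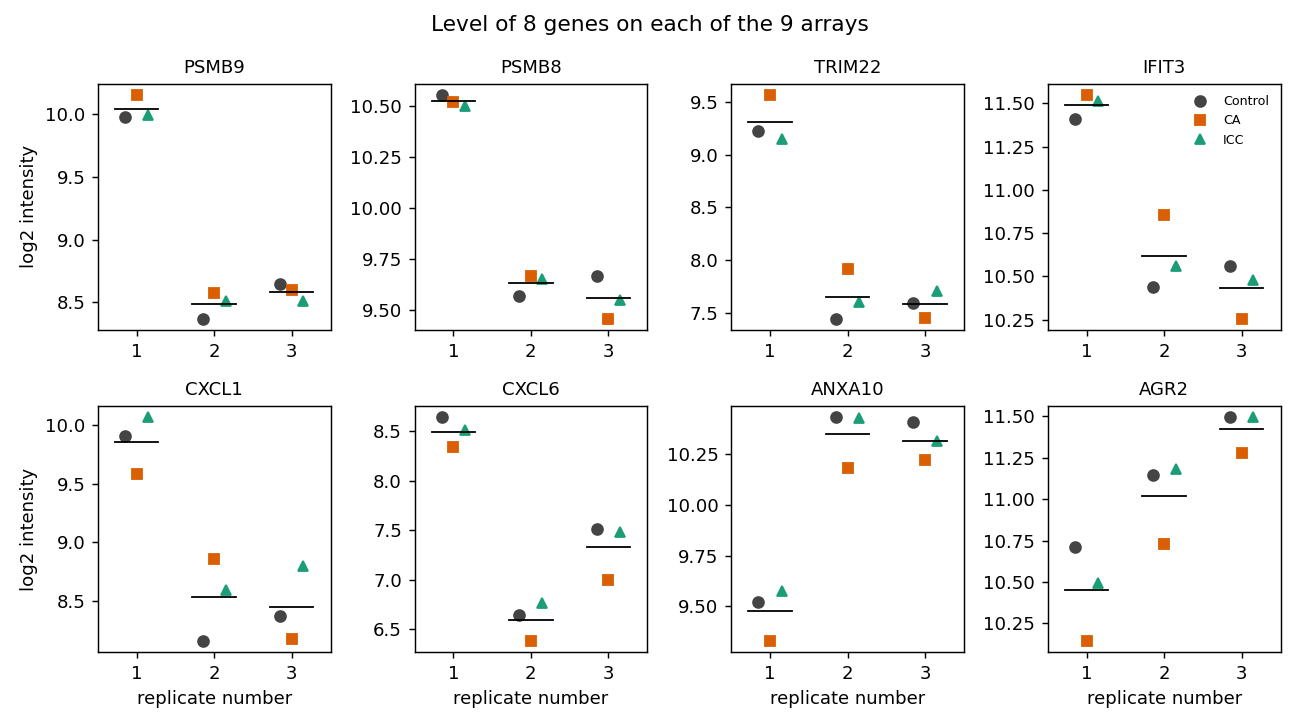
Level (y axis, log2 intensity) of 8 genes on the 9 arrays by replicate number (x axis), with treatments as symbols and black bars as means of 3 arrays. PSMB9 lies between 9.98 and 10.16 in replicate 1 and at most at 8.65 elsewhere, ANXA10 and AGR2 lie lower in replicate 1, and CXCL6 also lies lower in replicate 2 than in replicate 3.

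Of 13 measured subunits of the constitutive proteasome, 0 were past the limit in either direction in limma, without any 1 array and with the replicate block alike, and the median was 0.07, from -0.05 to 0.20. Over all genes 2.39% passed as higher and 0.455% as lower, so 0 of 13 lies near those shares. Of the 13, 11 lay above 0. At an unadjusted p under 0.05 in limma, 1 of the 13 was higher and 0 lower, against 16.7% of all genes in either direction. The highest member of the list, PSMB4, a structural subunit of the core, stood at 0.20 ± 0.055 with arrays apart.

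Downstream of the proteasome, TAP1 and TAP2, which carry peptides into the endoplasmic reticulum, differed by 0.70 ± 0.073 and 0.39 ± 0.074. TAP1 read 9.82, 9.69 and 9.51 in Control, CA and ICC of replicate 1, and 8.87, 9.00 and 9.02 as lowest, median and highest elsewhere. The MHC class I heavy chains HLA-B, HLA-C, HLA-E and HLA-F were higher by 0.65, 0.47, 0.55 and 0.58 log2. Probes of these near-identical genes can read each other's transcripts, so how the difference divides among them is uncertain. Their light chain B2M stood at 0.12 ± 0.056, short of the limit, with 13.97, 13.90 and 13.89 against at most 13.84. NLRC5, the transactivator of class I genes, differed by 1.17 ± 0.12 from a low level, with 6.84, 7.04 and 6.83 in replicate 1 and 5.43, 5.82 and 5.95 elsewhere. The chaperones that assemble class I molecules and much else, CANX, CALR and PDIA3, lay between -0.12 and -0.04 and did not pass.

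Interferon-stimulated genes were the list with the highest median, 0.57 log2 over 49 measured genes, and all 49 lay above 0. In 36 of these all replicate 1 arrays lay above the rest, against 7.21% of all genes. Past the limit were 31 higher, against 2.39% of all genes, and 0 lower, against 0.455%. Leaving out an array moved the count to 7 without Control replicate 1, 6 without CA replicate 1, 6 without ICC replicate 1 and 18 without ICC replicate 3, while the median stayed between 0.49 and 0.67. Within Control, CA and ICC the median was 0.71, 0.55 and 0.50.

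Among sensors and regulators, TRIM22, an antiviral ubiquitin ligase, read 9.23, 9.57 and 9.15 in Control, CA and ICC of replicate 1 and 7.44, 7.60 and 7.91 as lowest, median and highest elsewhere. This was the widest gap of the list, at 1.70 ± 0.11 (3.24-fold). UBE2L6, the conjugating enzyme for the ubiquitin-like protein ISG15, read 10.22, 10.44 and 10.23 against 8.72, 8.94 and 9.37, a difference of 1.31 ± 0.14. ISG15 itself differed by 0.47 ± 0.099 and USP18, which removes it, by 0.81 ± 0.14. IFIH1 and DHX58, cytosolic sensors of double-stranded RNA and their regulator, differed by 0.81 and 0.48. The transcription factors IRF7, IRF1 and IRF9 stood at 0.46, 0.31 and 0.25 and did not pass.

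Of the effectors that bind or degrade viral RNA, IFIT3 read 11.41, 11.55 and 11.51 in Control, CA and ICC of replicate 1, against 10.25, 10.52 and 10.85 as lowest, median and highest of the others. The highest of the others was CA replicate 2, which still lay below replicate 1, and the difference was 0.97 ± 0.11 (1.95-fold). IFIT1, its partner, differed by 1.02 ± 0.16, and OAS1, OAS2 and OAS3, which make the activator of a ribonuclease, by 0.74, 0.90 and 0.76. The membrane proteins IFITM1, IFITM2 and IFITM3, which hinder virus entry and are near copies of each other, differed by 0.95, 0.54 and 0.50. SAMD9L, a restriction factor, read 8.07, 7.995 and 7.64 against 6.25, 6.48 and 7.07, a difference of 1.35 ± 0.15.

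Some effectors were graded over all 3 numbers. MX2, a GTPase of the dynamin family that restricts viruses, read 9.55, 9.71 and 9.22 in Control, CA and ICC of replicate 1, then 8.45, 9.15 and 8.55 in replicate 2 and 8.20, 7.97 and 8.21 in replicate 3. CA replicate 2 came close to ICC replicate 1, so the groups were apart by a small margin. IFI44L read 11.16, 11.44 and 11.35 in replicate 1, 10.37, 10.89 and 10.57 in replicate 2 and 9.86, 9.67 and 9.98 in replicate 3. Its difference for replicate 1 was 1.09 ± 0.24 (2.14-fold) and for MX2 1.07 ± 0.21 (2.10-fold). EPSTI1, a stromal-response gene also induced by interferon, followed the same order and differed by 1.22 ± 0.22. OASL, at 0.23 ± 0.14, overlapped between the groups, as 8.87 in CA replicate 1 lay below the highest of the others at 9.18.

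For the ligands and receptors of the system smaller differences were measured. Of 14 interferons, receptor chains and JAK kinases, 0 were past the limit in limma, against 2.39% of all genes higher and 0.455% lower. At an unadjusted p under 0.05 in limma there were 3, against 16.7% of all genes. Arrays were apart in 0, against 7.21% of all genes above and 1.99% below. Both counts of 0 lie near the shares of all genes, and the median of the list was 0.08. IFNAR1, a chain of the type I receptor, stood at 0.24 ± 0.083 and IFNGR2, of the type II receptor, at 0.16 ± 0.060. IFNB1 and IFNG, whose transcripts encode interferon beta and gamma, had mean levels of 4.30 and 3.89, below the median gene, and stood at 0.28 ± 0.13 and -0.07 ± 0.082. Without 1 array the list had at most 1 gene past the limit.

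Promoter windows of RefSeq on GRCh38.p14, from 250 bases before to 50 after a transcript start, were found for 26 of the 32 genes named individually by rule. They were searched on both strands for the letters GAAANNGAAA, the core of the interferon-stimulated response element, for TTCNNNGAA, the gamma-activated sequence, and for GGGNNTTTCC, an NF-kB site. The response element was in 3.57% of all 35116 windows. At least 1 window held it in 3.98% of 15384 measured genes, 69.2% of 39 interferon-stimulated genes and 62.5% of 16 class I genes. The 2 windows below are shown because their genes are markers of the replicate 1 difference, with matches in capitals. The IFIT3 window is chr10:89332279-89332578 on the plus strand and holds 2 response elements, read on the minus strand. The PSMB8 window, chr6:32843998-32844297 on the minus strand, holds a gamma-activated sequence, found in 7.66% of all windows, and a response element next to the transcript start. The other window of PSMB8 held none of the 3 patterns, and the other window of IFIT3 also held 2 response elements.
IFIT3: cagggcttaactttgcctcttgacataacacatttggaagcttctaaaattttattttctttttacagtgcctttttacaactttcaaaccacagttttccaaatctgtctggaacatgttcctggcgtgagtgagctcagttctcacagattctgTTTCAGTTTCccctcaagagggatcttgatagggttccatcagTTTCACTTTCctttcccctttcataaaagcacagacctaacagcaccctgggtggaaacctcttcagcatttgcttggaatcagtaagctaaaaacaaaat
PSMB8: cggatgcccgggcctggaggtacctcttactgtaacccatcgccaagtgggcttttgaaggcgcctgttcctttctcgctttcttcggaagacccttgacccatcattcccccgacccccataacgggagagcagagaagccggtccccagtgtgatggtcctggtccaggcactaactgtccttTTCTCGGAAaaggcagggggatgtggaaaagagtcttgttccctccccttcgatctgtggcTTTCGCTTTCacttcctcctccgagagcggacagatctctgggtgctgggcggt
The window of PSMB9 held none of the 3 letter patterns. A match describes letters only, and no match says only that these letters are not in this window.

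NF-kB chemokines and feedback genes made up the other set of large differences. Of 39 measured, with a median of 0.33, 14 had all replicate 1 arrays above the rest, against 7.21% of all genes. Past the limit were 10 higher, against 2.39% of all genes, and 0 lower, against 0.455%. The count was 3 without Control replicate 1, without CA replicate 1 or without ICC replicate 1, 16 without CA replicate 2 and 6 without ICC replicate 3. The members that passed were the chemokines CXCL1, CXCL3, CXCL6 and CXCL10, the complement factors CFB and C3, and TNFAIP3, NFKBIA, NFKBIE and TNIP1, which restrain NF-kB.

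CXCL1, a chemokine that draws neutrophils, read 9.91 log2 in Control, 9.58 in CA and 10.07 in ICC of replicate 1, against 8.16, 8.48 and 8.86 as lowest, median and highest of the others. The groups did not meet, and the difference was 1.36 ± 0.15 (2.57-fold). CXCL6, a related chemokine, read 8.64, 8.34 and 8.51 against 6.38, 6.88 and 7.51, a difference of 1.54 ± 0.21 (2.90-fold). CXCL8, another neutrophil chemokine, stood at 0.97 ± 0.26 with arrays apart but did not pass, and CCL20, which draws lymphocytes, stood at 0.93 ± 0.50 with Control replicate 1 at 10.35 and the other replicate 1 arrays at 8.84 and 8.59. CXCL10, a chemokine induced by both systems, also owed much to that array, with 8.14 in Control replicate 1 and 6.84 and 7.05 in CA and ICC against at most 6.74 elsewhere.

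The windows of CXCL1 and CXCL6 are shown because both hold the same 10-letter NF-kB match, in capitals. The pattern was in 1.91% of all windows. At least 1 window held it in 2.67% of 15384 measured genes and in 45.5% of 33 genes of the list. They lie at chr4:73869143-73869442 and chr4:73836428-73836727, both on the plus strand, and in CXCL6 the capitals also cover a gamma-activated sequence that overlaps the match.
CXCL1: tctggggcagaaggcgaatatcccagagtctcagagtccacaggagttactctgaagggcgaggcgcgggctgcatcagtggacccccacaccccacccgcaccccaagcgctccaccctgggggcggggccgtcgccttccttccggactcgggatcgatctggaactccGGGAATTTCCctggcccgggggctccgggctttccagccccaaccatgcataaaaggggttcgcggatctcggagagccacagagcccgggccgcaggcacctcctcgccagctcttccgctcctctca
CXCL6: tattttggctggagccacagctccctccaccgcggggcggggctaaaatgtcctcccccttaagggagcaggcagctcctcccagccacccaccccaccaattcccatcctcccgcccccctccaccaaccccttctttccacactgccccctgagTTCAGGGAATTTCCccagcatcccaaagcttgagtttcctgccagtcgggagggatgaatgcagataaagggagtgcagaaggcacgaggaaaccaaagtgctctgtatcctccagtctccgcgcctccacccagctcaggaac
Among all 374 genes past the limit and higher with a window, 12.8% held the response element and 6.15% the NF-kB pattern. Of 15384 measured genes 3.98% and 2.67% did. The gamma-activated sequence was in 13.1% of the 374 and 8.97% of the measured genes. Among 76 lower genes the response element and the NF-kB pattern were each in 5.26%, or 4 genes, and the gamma-activated sequence in 9.21%. The contrast that chose the arrays also picked these genes, so nothing is read from these shares.

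CFB, complement factor B, read 9.04, 8.73 and 8.86 in Control, CA and ICC of replicate 1 and 7.11, 7.42 and 7.73 as lowest, median and highest elsewhere. The arrays were apart, at 1.44 ± 0.12 (2.72-fold). When probe sets that can read several transcripts were left out, the remaining probe set of CFB gave 0.14, short of the limit. C3, the central complement protein, read 9.37, 9.15 and 9.33 against 7.67, 8.21 and 8.55, a difference of 1.12 ± 0.20. TNFAIP3, a deubiquitinase that ends NF-kB signalling, differed by 0.82 ± 0.081, and NFKBIA, its cytoplasmic inhibitor, by 0.43 ± 0.075. The subunits RELA, REL, NFKB1, NFKB2 and RELB stood between -0.07 and 0.47 and did not pass. The cytokines TNF, IL1B and IL6 lay between 0.00 and 0.06.

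HCP5, a transcript from the MHC class I region, had the largest difference among genes named by rule. It read 7.82, 7.96 and 7.80 in Control, CA and ICC of replicate 1 and 5.49, 6.10 and 6.32 as lowest, median and highest elsewhere, which gives 1.82 ± 0.15 (3.54-fold). IL4I1, a secreted amino acid oxidase, read 8.08, 7.53 and 7.67 against 6.10, 6.36 and 6.65 (1.40 ± 0.13). SLC15A3, a lysosomal peptide transporter, differed by 1.05 ± 0.10 and MDK, a heparin-binding growth factor, by 1.05 ± 0.11. In all 4 the replicate 1 arrays were above every other array, as the rule that named them required.

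**Figure D3:**
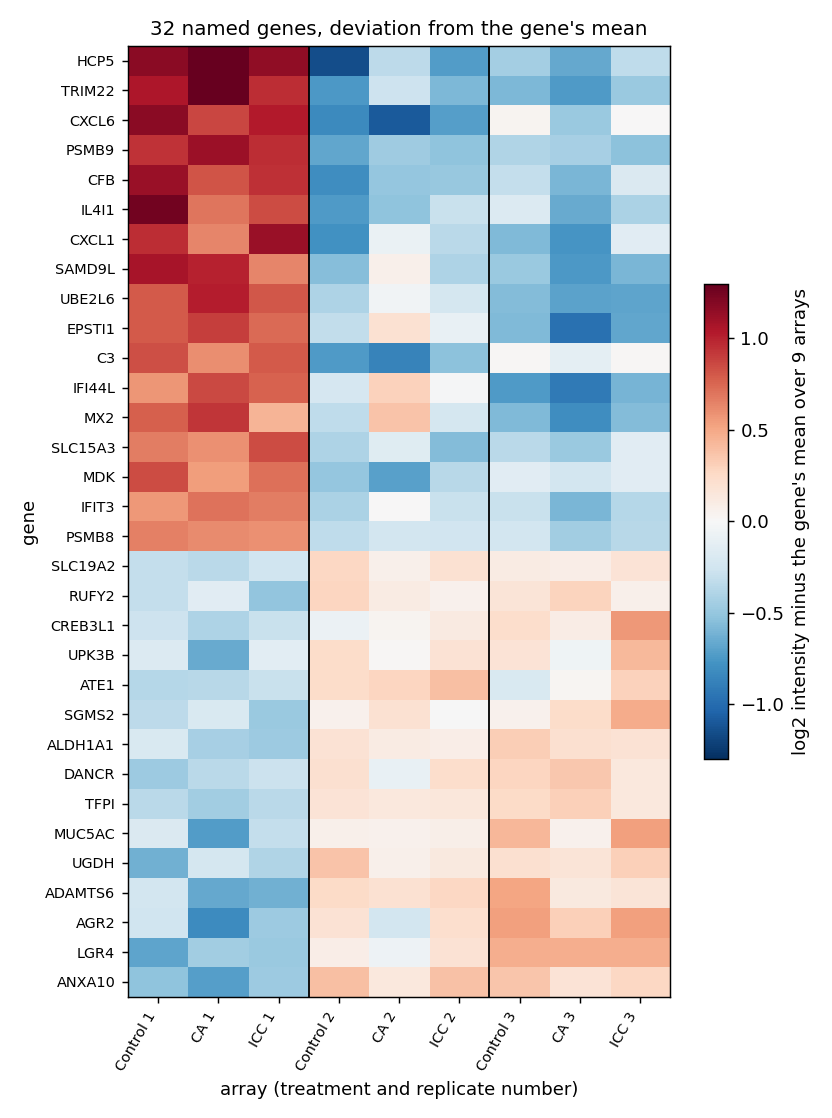
Level of the 32 genes named by rule (y axis) on each array (x axis, ordered by replicate number), as log2 intensity minus the gene's mean over 9 arrays, with red above and blue below that mean. The replicate 1 columns are red in the 17 higher genes, from HCP5 (difference 1.82) to PSMB8 (0.93), and blue in the 15 lower ones, down to ANXA10 (-0.86).

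Further lists of related defence genes were written after values had been seen, so their counts only describe. Over all genes 2.39% were past the limit and higher. Of 25 other antiviral effectors, 18 were past the limit and higher, with a median of 0.52. They include RTP4 at 1.38, TRIM6 at 0.87, SAMHD1, which depletes nucleotides, at 0.73, and PML, the organiser of nuclear bodies, at 0.67. The count was 7 without Control replicate 1, 5 without CA replicate 1 and 6 without ICC replicate 1. Of 20 genes of caspases, inflammasomes and death ligands, 6 were higher, led by CASP1, the inflammasome protease, at 0.92 ± 0.070, and the count was 2 without any 1 of the replicate 1 arrays. Of 19 complement and mucosal defence genes 5 were higher, with WFDC2, a secreted protein of the protease inhibitor type, at 1.04 ± 0.067 and DMBT1, a mucosal scavenger protein, at 1.00 ± 0.098. That count was 2 without any 1 of the replicate 1 arrays and 3 without ICC replicate 2. Of 23 pattern recognition genes 4 were higher, among them ZBP1, a sensor of nucleic acids, at 1.04 ± 0.14, and IKBKE, a kinase that activates IRF factors, at 0.53 ± 0.066, and this count was 1 without Control replicate 1, 0 without CA replicate 1 and 2 without ICC replicate 1. Of 13 class II genes only CTSS, a cathepsin, passed, at 0.58 ± 0.094, and CD74, the invariant chain, fell just short at 0.57 ± 0.13.

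**Figure D4:**
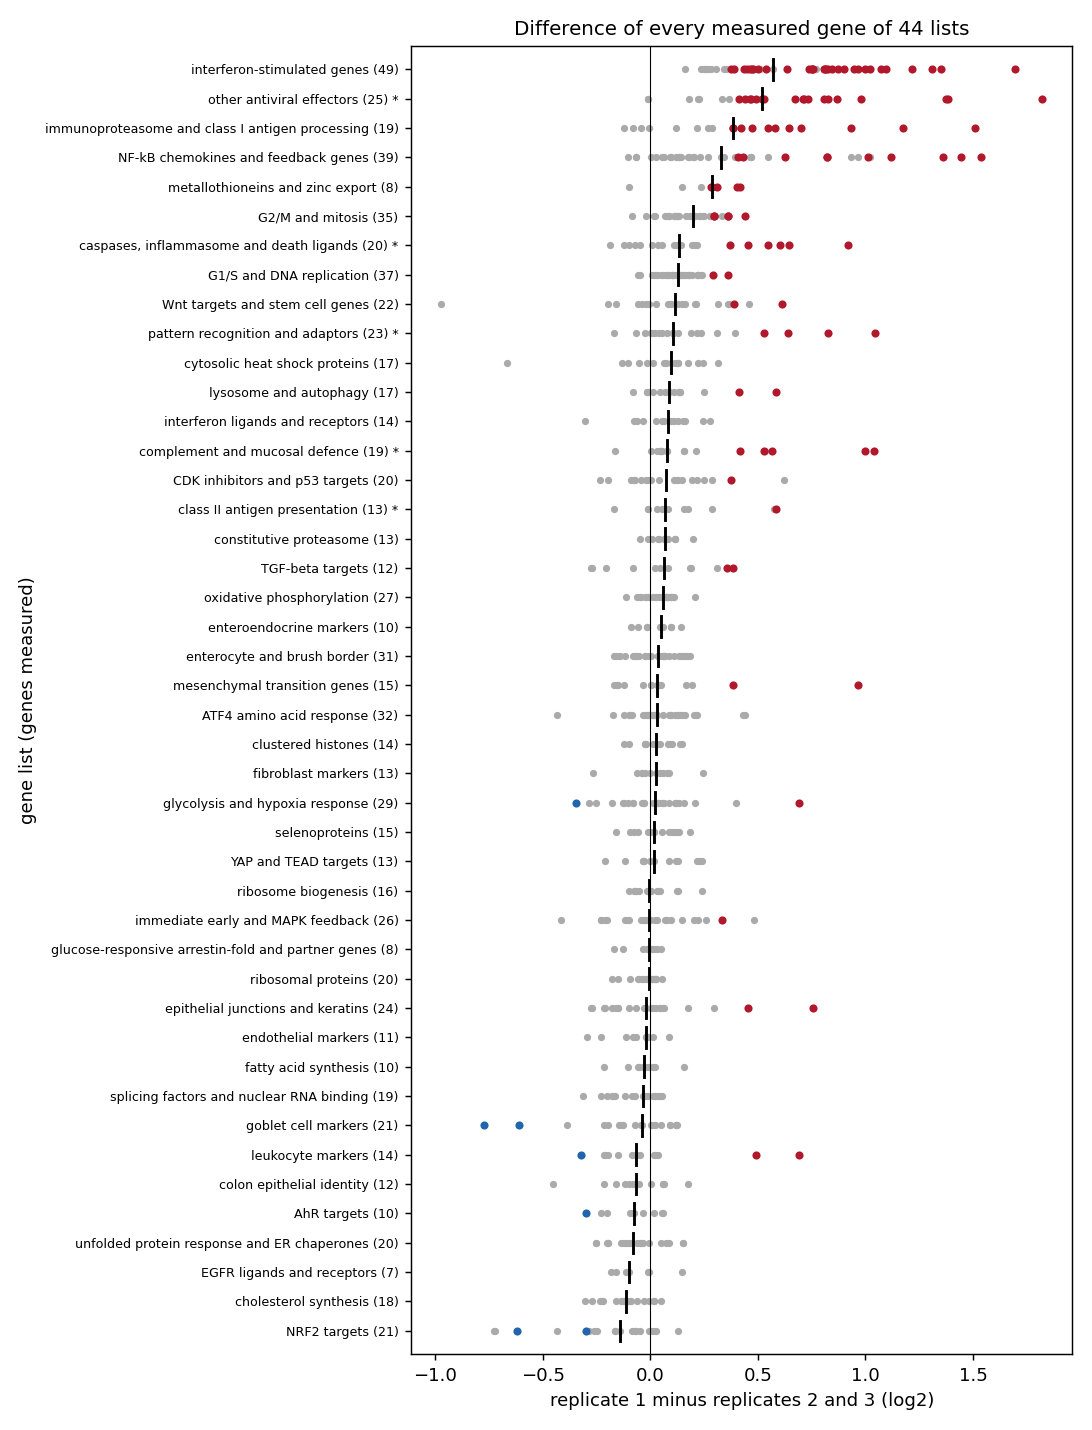
Difference between replicate 1 and the other arrays (x axis, log2) for every measured gene of 44 lists (y axis, number of genes measured in brackets). Points past the limit are red where higher and blue where lower, black bars are medians, and stars mark the 5 lists written after values were seen; medians run from 0.57 for interferon-stimulated genes to -0.14 for NRF2 targets.

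Most other lists lay close to the median of all genes. Of 39 lists, 34 had a median within 0.15 log2 of 0 and 21 had 0 genes past the limit in limma. In these 21 lists 36 of 340 measured genes had an unadjusted p under 0.05, against 3300 of all 19775 genes (16.7%). Leaving out every list with a gene past the limit by itself lowers that count, so nothing is read from it. Oxidative phosphorylation (27 measured, median 0.06), ribosomal proteins (20, -0.01), fatty acid synthesis (10, -0.03), enterocyte and brush border genes (31, 0.03), the unfolded protein response (20, -0.08) and the ATF4 amino acid response (32, 0.03) were among these 21. The ATF4 median joined opposite signs, at 0.39 within Control, -0.16 within CA and -0.12 within ICC, and it lay between -0.17 and 0.17 when 1 array was left out. Also among the 21 were cholesterol synthesis (18, -0.11), clustered histones (14, 0.03), selenoproteins (15, 0.02) and cytosolic heat shock proteins (17, 0.09).

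Metallothioneins, which store and buffer zinc and copper, were mostly higher by a small amount. Of 8 measured genes of this list, which also covers zinc export, 7 lay above 0 and 1 below, from -0.10 to 0.42. The median was 0.29, and 5 passed as higher, against 2.39% of all genes. In 6 all replicate 1 arrays lay above the rest, against 7.21%. MT2A read 11.56, 11.74 and 11.74 in Control, CA and ICC of replicate 1 and 11.14, 11.29 and 11.43 elsewhere, a difference of 0.40 ± 0.059. MT1G stood at 0.42 ± 0.069, MT1H at 0.31, MT1X at 0.29 and MT1F at 0.28, and MT1E fell just short at 0.24 ± 0.055. These genes are close copies, so a shared transcript can be read by several probe sets. No gene of the list passed without Control replicate 1, without CA replicate 1 or without ICC replicate 1, 3 passed without Control replicate 3 or CA replicate 3 and 2 without ICC replicate 2 or ICC replicate 3.

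Genes of the cell cycle differed by small amounts. In the G2/M list 33 of 35 genes lay above 0, 5 passed as higher and the median was 0.20. In the G1/S list 35 of 37 lay above 0, 2 passed as higher and the median was 0.13. Over all genes 2.39% passed as higher. AURKB, a kinase of chromosome segregation, read 9.23, 9.34 and 9.34 in replicate 1 and 8.74, 8.87 and 8.95 elsewhere, a difference of 0.44 ± 0.067. UBE2C and CDK1, which drive passage through mitosis, differed by 0.36 each, CDC25C and NUSAP1 by 0.30 each, and RFC4 and CDC45, of the replication machinery, by 0.36 and 0.29. Within Control the G2/M median was 0.06, against 0.21 in CA and 0.24 in ICC. The G1/S median was 0.01 against 0.18 and 0.19, beside 0.027 for all genes over the 9 arrays. Each of these within-treatment values sets 1 array against 2. When tested for a difference that varies with the treatment, 0 genes of either list passed. The G1/S list had 0 genes past the limit without any 1 of the replicate 1 arrays and 1 without any other array. In the G2/M list 0 genes passed without CA replicate 1 or ICC replicate 1, 2 passed without Control replicate 1, ICC replicate 2 or ICC replicate 3, and 3 without Control replicate 2 or Control replicate 3. Of 20 CDK inhibitors and p53 targets only DDB2, a DNA damage sensor, passed, at 0.38 ± 0.082.

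In the remaining lists single genes stood apart. FN1, fibronectin, differed by 0.96 ± 0.092, and the TGF-beta targets TGFBI and PMEPA1 by 0.39 and 0.36. NKD1 and NOTUM, feedback inhibitors of Wnt signalling, were higher by 0.61 ± 0.080 and 0.39 ± 0.067, while DKK1, another Wnt inhibitor, stood at -0.97 ± 0.26 with arrays apart and did not pass. The keratins KRT23 and KRT80 differed by 0.75 and 0.46, the glycolytic enzyme ENO2 by 0.69 ± 0.12, the cathepsin CTSS by 0.58, WIPI1, an autophagy protein, by 0.41 and DUSP4, a MAP kinase phosphatase, by 0.33. Lists with 1 or 2 genes past the limit in a direction had 0 there when a certain array was left out, except the mesenchymal list, which had at least 1.

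Of markers of other cell types, 0 of 13 fibroblast, 0 of 11 endothelial and 0 of 10 enteroendocrine genes passed in limma. Over all genes 2.39% passed as higher and 0.455% as lower, so these counts of 0 lie near those shares. At an unadjusted p under 0.05 in limma there were 2, 2 and 0, a limit met by 16.7% of all genes. Of 14 leukocyte markers, LAPTM5, a lysosomal protein, at 0.69 ± 0.14, and CD14, a co-receptor for bacterial lipopolysaccharide, at 0.49 ± 0.096, were higher and LYZ, lysozyme, at -0.32 ± 0.058, was lower. The mean level of this list was 5.69 to 5.88 log2 in replicate 1 and 5.74 to 5.84 in the other arrays. PTPRC, which marks all leukocytes, read 3.70, 3.65 and 3.66 in replicate 1 and 3.45 to 3.79 elsewhere.

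No list had more than 2 genes past the limit and lower on the replicate 1 arrays, beside 0.455% of all genes. ANXA10, an annexin of gastric-type epithelium, read 9.52 in Control, 9.33 in CA and 9.58 in ICC of replicate 1, against 10.18, 10.36 and 10.43 as lowest, median and highest of the others. The arrays were well apart, at -0.86 ± 0.056 log2 (1.81-fold lower). AGR2, which folds mucins in the endoplasmic reticulum, read 10.71, 10.14 and 10.50 against 10.73, 11.23 and 11.50 (-0.77 ± 0.13), so that Control replicate 1 and CA replicate 2 all but met. MUC5AC, a gel-forming mucin, read 7.05, 6.50 and 6.92 against 7.28, 7.30 and 7.76 (-0.61 ± 0.11). Without probe sets that can read several transcripts MUC5AC stood at -0.45 and fell short of the limit. AGR2 and MUC5AC were the goblet cell markers past the limit among 21, whose median was -0.04, and MUC2, the main mucin of the colon, stood at -0.05 ± 0.082.

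LGR4, a receptor for R-spondins that raises Wnt signalling, read 7.51, 7.74 and 7.72 in Control, CA and ICC of replicate 1 and 8.13, 8.52 and 8.67 as lowest, median and highest elsewhere (-0.81 ± 0.13). Only 2 of its 3 probe sets had this sign, and without probe sets that can read several transcripts the value was -0.098. TFPI, an inhibitor of blood clotting, read 10.19, 10.09 and 10.19 against 10.68, 10.70 and 10.85 (-0.57 ± 0.064), and all 5 of its probe sets were lower. ALDH1A1, an aldehyde dehydrogenase that makes retinoic acid, read 12.02, 11.79 and 11.74 against 12.31, 12.41 and 12.54 (-0.55 ± 0.063). ADAMTS6, a secreted metalloprotease, stood at -0.76 ± 0.076.

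UGDH, which makes the sugar donor for glucuronidation, read 9.70, 10.10 and 9.94 in Control, CA and ICC of replicate 1 and 10.40, 10.51 and 10.69 as lowest, median and highest of the others (-0.62 ± 0.098). With NQO1, a quinone reductase at -0.30 ± 0.063, it was past the limit among 21 targets of NRF2, the factor of the oxidative stress response. The median of that list was -0.14, 6 of its genes had all replicate 1 arrays below the rest, and AKR1B10 stood at -0.73 ± 0.24 without passing. The other lower genes named by rule lay between -0.55 and -0.46. They were the noncoding RNA DANCR, the sphingomyelin synthase SGMS2, the arginyltransferase ATE1, the uroplakin UPK3B, the membrane-bound factor CREB3L1, RUFY2 and the thiamine transporter SLC19A2. ATE1 and RUFY2 each had several probe sets of which 2 shared the sign, and the mean over the probe sets of RUFY2 was 0.019, which reverses the sign.

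Replicates 2 and 3 were set against each other to see whether the same genes also differ between the remaining numbers. The split came from a resemblance of same-numbered arrays that included numbers 2 and 3, so this contrast is not independent of that choice. Its adjusted p-values likewise serve only as a measure of a difference against the spread between arrays. Limma gave 185 genes higher in replicate 2 (0.936%) and 158 lower (0.799%). Of the 563 genes of replicate 1, 18 were among these 343. Of the 17 genes named as higher in replicate 1, 3 passed as higher and 2 as lower in replicate 2 than in replicate 3, and of 15 named as lower, 2 passed as lower. The count was 35 without Control replicate 2, 8 without Control replicate 3, 17 without CA replicate 2, 6 without CA replicate 3, 44 without the second ICC array and 207 without the third. It was 176 without CA replicate 1, 189 without ICC replicate 1 and 54 when the 6 arrays were fitted alone, so that single calls here rest on few arrays.

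The interferon-stimulated and the class I genes did not keep the same order between replicates 2 and 3. Of 49 interferon-stimulated genes 44 were higher in replicate 2, with a median of 0.25 against -0.0028 for all genes, and 4 passed. The shift was uneven over the treatments, since the mean of the list was higher in replicate 2 by 0.06 in Control, 0.56 in CA and 0.15 in ICC. The genes that passed were IFI44L at 0.77 ± 0.12 (adjusted p 0.0202), EPSTI1 at 0.67 ± 0.14 (0.0424), UBE2L6 at 0.43 ± 0.090 (0.0466) and IFITM1 at 0.41 ± 0.087 (0.0466). Of 19 class I genes 4 were higher in replicate 2, the median was -0.15, and HLA-B passed as lower at -0.34 ± 0.069 (adjusted p 0.0418). PSMB9, at -0.10 ± 0.075, and PSMB8, at 0.07 ± 0.074, did not pass, nor did IFIT3 at 0.19 ± 0.11 or CXCL1 at 0.09 ± 0.17.

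CXCL6 and C3 passed with the lowest level in replicate 2. CXCL6 read 6.65, 6.38 and 6.76 in Control, CA and ICC of replicate 2 and 7.51, 6.99 and 7.48 in replicate 3 (-0.73 ± 0.080, adjusted p 0.00703). C3 stood at -0.68 ± 0.071 (0.00649). CXCL8, which fell short of the limit for replicate 1, was higher in replicate 2 than in replicate 3, at 0.83 ± 0.14 (0.0281).

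**Figure D5:**
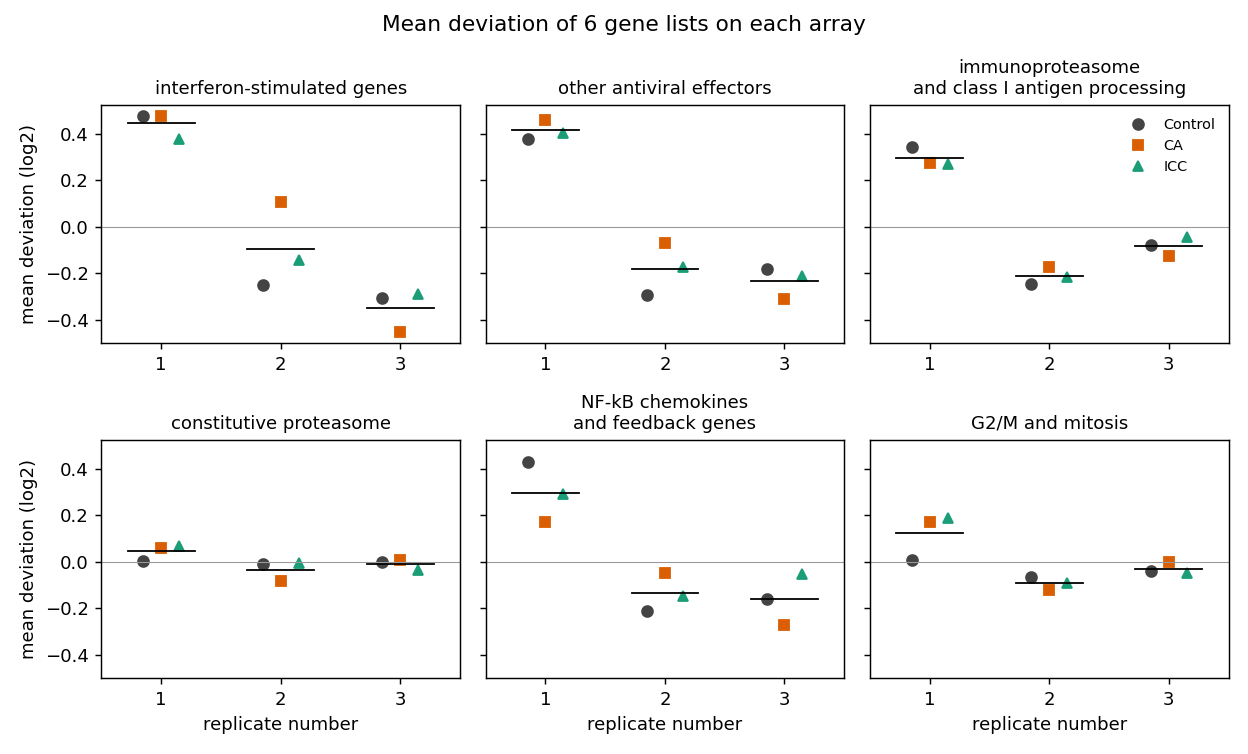
Mean deviation of the genes of 6 lists from each gene's mean over 9 arrays (y axis, log2) by replicate number (x axis), with treatments as symbols and black bars as means of 3 arrays. Interferon-stimulated genes lie between 0.38 and 0.48 in replicate 1, at 0.11 in CA replicate 2 and between -0.45 and -0.14 on the other 5 arrays, and the constitutive proteasome stays between -0.08 and 0.07 on all 9.

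In 8 of the 10 genes named by rule for replicate 2 against replicate 3, the mean of replicate 1 lay between the other two means, and in RARRES1 and CXCL6 it lay above both. EGR1, an immediate early transcription factor, read 11.53, 11.28 and 11.49 in Control, CA and ICC of replicate 1, between 12.17 and 12.54 in replicate 2 and between 10.22 and 10.52 in replicate 3. The 3 numbers did not overlap, and replicate 2 was higher than replicate 3 by 2.05 ± 0.12 (adjusted p 8.45e-05). FOS, its partner in the early response, differed by 1.89 ± 0.17 (0.00249), DDIT4, a stress-induced inhibitor of mTOR, by 2.05 ± 0.37 (0.0308), HBEGF, an EGF receptor ligand, by 1.93 ± 0.31 (0.0250) and CHAC1, an ATF4 target that degrades glutathione, by 1.87 ± 0.33 (0.0308). All 26 immediate early and MAPK feedback genes lay above 0 in replicate 2 minus replicate 3, with a median of 0.65. Of these, 12 passed as higher and 0 as lower, against 0.936% and 0.799% of all genes. The median of this list for replicate 1 was 0.00. Of 32 ATF4 amino acid response genes 31 lay above 0 in replicate 2 minus replicate 3, with a median of 0.60, and 6 passed as higher and 0 as lower. PIGR, which carries antibodies across the epithelium, stood at -1.81 ± 0.069 in replicate 2 minus replicate 3 (adjusted p 2.22e-06), and RARRES1, LGR5 and ZNF519 lay between -0.92 and -0.72.

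Whether the treatments acted differently on replicate 1 was tested as an interaction. In limma 0% of genes passed for ICC and 0% for CA, with 985 and 631 genes at an unadjusted p under 0.05, and 0 passed in any alternative that could be fitted. Over the 32 named genes the ICC term lay between -0.51 (IL4I1) and 0.30 (UGDH) and the CA term between -0.58 (CXCL1) and 0.56 (UGDH), so a change of that size in the response of a gene was not called at this number of arrays.

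The effects of the treatments on the same genes were taken from the 3 groups, a contrast that the choice of arrays did not use. For ICC against control 0% of genes passed (1529 at an unadjusted p under 0.05), and for CA against control 0% (883). The named genes lay between -0.23 (ADAMTS6) and 0.34 (CXCL1) for ICC, and between -0.40 (AGR2) and 0.24 (HCP5) for CA. With the replicate block 0 genes passed for ICC and 3, all lower, for CA. Named after their values were seen, these were HSD3B1 at -0.65, SLC4A4 at -0.63 and S100A2 at -0.62, each with an adjusted p of 0.0472. For replicate 1 they stood at 0.76, 0.03 and 0.14 and none of the 3 passed.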

How the data were processed

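The authors deposited linear intensity values for 9 arrays. The submitters' processing notes name RMA, with no version, and the design text names GeneSpring GX. Array medians were 43.8 to 46.6 and maxima 23682 to 25995, so log2 was taken here. Of 54675 probe sets, 62 controls, 1801 with several and 11721 with no gene symbol were left out, and the brightest of the 41091 others stood for each of 19775 genes. All differences came from limma 3.58.1 in R 4.3.3 with Benjamini-Hochberg adjustment over all genes, and "past the limit" or "passed" means an adjusted p under 0.05. The test was checked on simulated data.

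Members, the 39 gene lists (758 of 834 entries measured) and the tests were chosen with earlier results of these data known, and 5 lists (100 of 106 entries measured) were added after values were seen. Genes named by rule were the 4 markers PSMB9, PSMB8, IFIT3 and CXCL1 and the 15 highest and 15 lowest differences past the limit with arrays apart and a mean level at or above the median gene, passing over uncharacterised loci. For replicate 2 against 3 they were 5 in each direction. Of other lists up to 4 members by smallest p were named. Other genes were named as list members after values were seen.

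After group means were removed, deviations of same-numbered arrays correlated at 0.327 to 0.518 in all 9 pairs, and at -0.436 to 0.0839 in the 18 others. The split was chosen from this resemblance, and removing group means by itself lowers the correlations of the other pairs. These values therefore describe the resemblance and are no separate check of it. Alternatives were another quantile normalization, centring, a filter on dim genes, probe set rules, array weights, the replicate block, and leaving out each array. Promoter windows came from the RefSeq table, and figures from matplotlib 3.10.9.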

Additional observations from a re-analysis of the deposited data

How the results depend on the processing

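The count of 563 genes for replicate 1 ranged from 75 to 678 when 1 array was left out. It was 368 once _x_at and _s_at probe sets were dropped, 928 with array weights, 1003 with the replicate block, 932 with probe sets tested singly and 901 against replicate 3 alone. Quantile normalization applied again gave 306 higher and 106 lower genes. Of 606 tested values of the 32 named genes under alternatives, 69 fell short of the limit, and 1 changed sign (RUFY2, 0.019 with the mean of its probe sets). No array's absence cost 17 of the 32 their call, and 15 fell short without at least 1 array. These were CXCL6, EPSTI1, C3, IFI44L, MX2, LGR4, AGR2, UGDH, MUC5AC, DANCR, SGMS2, ATE1, UPK3B, CREB3L1 and RUFY2. The sign held in all 96 values within a single treatment. In each of the 32 genes the replicate 1 arrays lay all above or all below the other arrays. That by itself fixes the sign within each treatment, so nothing is read from this count.

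The count of 343 for replicate 2 against 3 ranged from 6 to 360 when 1 array was left out, was 706 among genes at or above the median level, and was 54 in a fit to the 6 arrays alone, an alternative chosen after seeing the data. The interactions and treatment contrasts gave 0 in every alternative fitted, except 3 for CA against control with the replicate block. The interactions could not be fitted without Control replicate 1, nor that of CA without CA replicate 1 or that of ICC without ICC replicate 1. Signal over background was not analysed here, so levels below the median gene are least certain.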

Other observations

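The 18S ribosomal control probe sets averaged 10.3 log2 in ICC replicate 2, against 7.05 to 8.65 on the other 8 arrays. The bacterial spike control bioB lay between 7.97 and 8.28 in replicate 1 and between 7.73 and 8.48 in the other arrays.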
